A study of Homo sapiens with 18 samples.

Results

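The 8 genes LXN, VWA1, PADI2, ALDH1A3, SORL1, C15orf52, KIF5B and ITPR3 were selected on their log2 fold changes, for large changes that differed between 2 siRNAs against the same kinase mRNA, out of 26485 genes listed in each table. They were taken by symbol, with no numeric threshold, and all 8 passed the filter on low values in both tables, which left 10593 siRNA-table genes and 9963 C16-table genes for testing. The siRNA values chose these genes, so they are given here as a description without a test. PANC-1, a cell line derived from ductal carcinoma of the human pancreas, received PKR siRNA 1, PKR siRNA 2 or a control siRNA and was collected 72 h after transfection. PANC-1 cells were also given C16, a small-molecule inhibitor of the kinase PKR, at 400 nM or 800 nM, or its solvent DMSO, also for 72 h. Poly(A) RNA was sequenced, with 3 libraries in each of the 6 groups. The 9 siRNA libraries were sequenced in 1 run and the 9 C16 libraries in another, and each run was normalized on its own, so a run effect cannot be told apart from an effect of the kind of treatment and each gene was compared within a table only. All 18 libraries came from the same cell line, and the labels do not say whether the libraries of a group came from separate cultures, so errors describe the spread between libraries.

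PKR, encoded by EIF2AK2, is a kinase that is switched on by double-stranded RNA and phosphorylates the translation factor eIF2α. An siRNA guide strand directs cleavage of the mRNA that it matches along its length, and bases 2 to 8 of the guide, its seed, can also pair with 3′ UTRs of other mRNAs and lower them, as a microRNA does. Large changes that come with 1 of a pair of siRNAs to the same mRNA are for that reason usually set beside a second siRNA and an inhibitor. The genes described here have different roles. LXN (latexin) inhibits carboxypeptidases, VWA1 is a matrix protein of basement membranes with a von Willebrand A domain, PADI2 converts arginine in proteins to citrulline, and ALDH1A3 oxidizes retinaldehyde to retinoic acid. SORL1 is a VPS10-type sorting receptor that works with retromer between endosomes and the Golgi, KIF5B is a heavy chain of the microtubule motor kinesin-1, and ITPR3 is an inositol trisphosphate receptor that releases calcium from the endoplasmic reticulum. C15orf52, now also called CCDC9B, encodes a coiled-coil protein with little described function.

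The target sites of both siRNAs lie in the coding sequence of EIF2AK2. They are shown because the seeds searched for in the 8 genes are read from them. The sequences are from GENCODE release 44 on hg38, 5′ to 3′ on the mRNA strand with T for U, and the capitals mark the 7 bases that pair with the seed.
PKR siRNA 1 site, exon 8 of 17, chr2:37138311-37138329, minus strand: gcagatacatcAGAGATAa
PKR siRNA 2 site, across exons 13 and 14 of 17, between chr2:37114850-37119967, minus strand: gatcttaagccAAGTAATa
The motifs AGAGATA for PKR siRNA 1 and AAGTAAT for PKR siRNA 2 were searched for on the mRNA strand of the 3′ UTR of the canonical transcript. Among the 8 genes, 3 held a match in the 3′ UTR, namely ALDH1A3, SORL1 and KIF5B. Of tested genes with a 3′ UTR of like length, 11.7% held the siRNA 1 seed that ALDH1A3 holds, 25.2% and 35.5% the siRNA 1 and siRNA 2 seeds that SORL1 holds, and 20.8% the siRNA 2 seed that KIF5B holds. The genes were selected on the siRNA values, so their low level under these siRNAs supports no link to the seed. The matches are printed below with 8 bases on either side, and capitals again mark the match.
ALDH1A3, siRNA 1 seed, chr15:100916173-100916179: cccttgtcAGAGATAtaaattac
SORL1, siRNA 1 seed, chr11:121630704-121630710: attctcatAGAGATAgagaagat
SORL1, siRNA 1 seed, chr11:121633144-121633150: agataggaAGAGATAtgtactgc
SORL1, siRNA 2 seed, chr11:121632488-121632494: ttttggacAAGTAATtcctgggg
SORL1, siRNA 2 seed, chr11:121633292-121633298: tcacagccAAGTAATaacccaag
KIF5B, siRNA 2 seed, chr10:32011502-32011508, minus strand: gtgttaaaAAGTAATcgaagtac
KIF5B, siRNA 2 seed, chr10:32010247-32010253, minus strand: aactgtaaAAGTAATagggaaag
KIF5B, siRNA 2 seed, chr10:32009814-32009820, minus strand: ccagttatAAGTAATatagttaa
The other 5 genes, LXN, VWA1, PADI2, C15orf52 and ITPR3, held 0 matches to either seed in the 3′ UTR, and none of the 8 held one in the coding sequence. A match of 7 letters is a description of these windows and not evidence of binding.

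Each siRNA library gave 1512940 to 1873906 reads on genes, and each C16 library 894145 to 1474308. EIF2AK2 fell from 97.4 ± 5.21 normalized counts in the control siRNA group to 11.1 ± 2.19 under PKR siRNA 1 and 8.65 ± 0.726 under PKR siRNA 2 (SD, n = 3 each), with adjusted p = 4.69e-18 and 2.58e-20 from limma. With C16 its values overlapped those of DMSO at both doses, with adjusted p = 0.974 at 800 nM and 0.35 at 400 nM from limma. Of the 6 epithelial markers, KRT8 and KRT18 had at least 977 normalized counts in every library, whereas KRT7 was at 0.761 to 20.5. The leukocyte markers PTPRC and CD3E and the fibroblast marker DCN were at 0 in all 18 libraries, and the 3 endothelial markers summed to at most 1.07 normalized counts. CD68, listed as a leukocyte marker but used by other cells as well, rose with C16 by a log2 fold change of 1.55 at 400 nM and 1.10 at 800 nM. In bulk RNA, fewer cells that express a gene and less of its RNA per cell cannot be told apart.

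LXN and VWA1 moved together. LXN had 261, 247 and 245 normalized counts under control siRNA, 57.8, 56.2 and 47.3 under PKR siRNA 1 and 847, 925 and 885 under PKR siRNA 2. The groups did not overlap, and LXN stood at 21.4% of the control mean under PKR siRNA 1 and at 353% under PKR siRNA 2. The log2 fold changes were -2.21 and 1.82 (standard error 0.09 each), and the difference between the siRNAs, 4.02, was the 9th largest in size among the 10593 genes tested. VWA1 had 667, 738 and 637 normalized counts under control siRNA, 153, 198 and 131 under PKR siRNA 1 and 1156, 1113 and 1136 under PKR siRNA 2. It was thus at 23.6% of control with the first siRNA and at 167% with the second, again with no overlap, and its log2 fold changes were -2.09 and 0.74 (standard error 0.08 each).

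**Figure D1:**
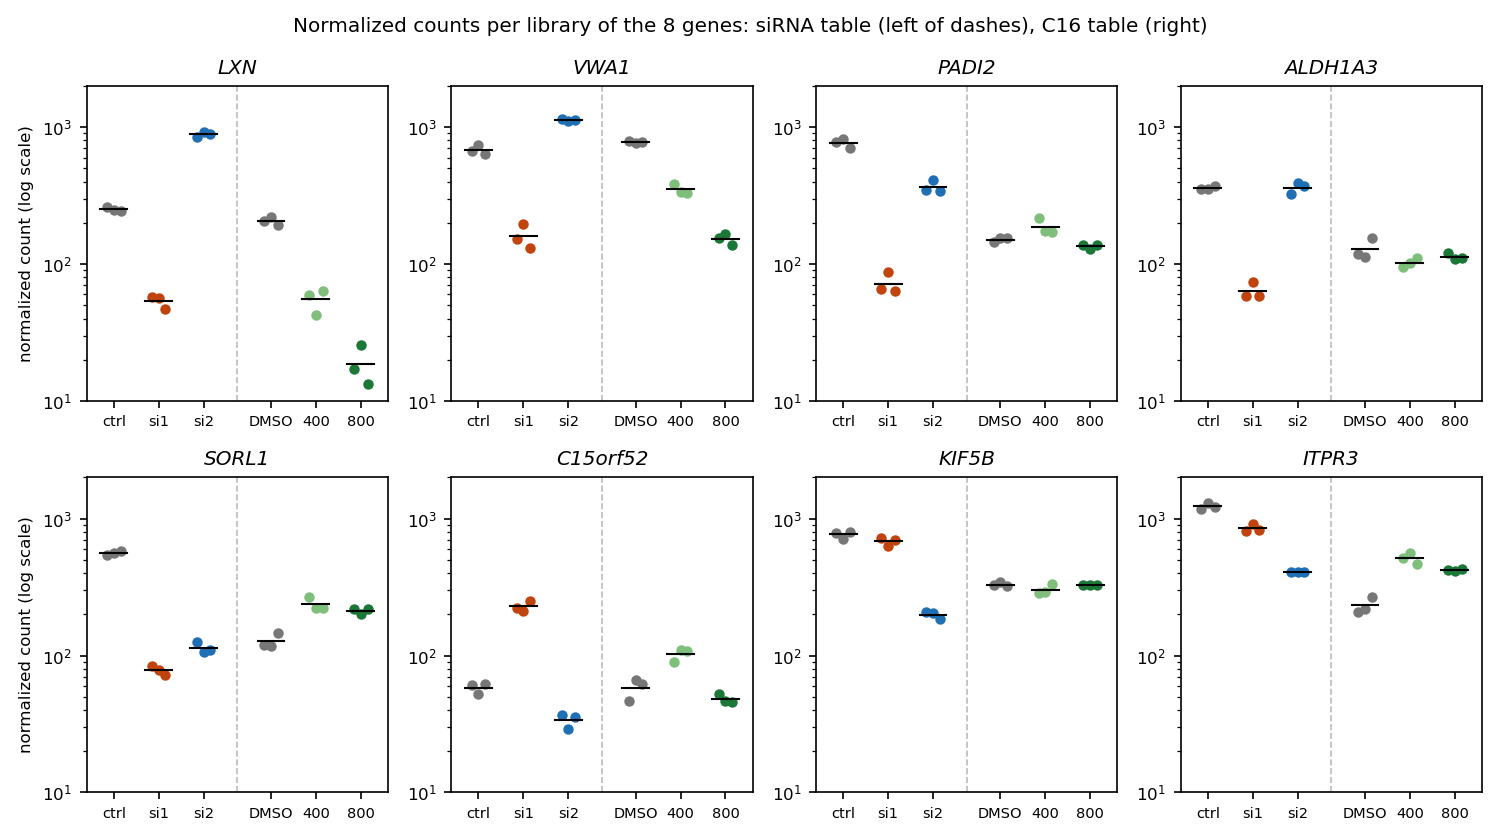
Normalized counts on a log axis for each of the 8 genes, 1 point per library and a bar at the mean of each group, with the siRNA table left of the dashed line (ctrl for control siRNA, si1 and si2 for the PKR siRNAs) and the C16 table (DMSO, 400 nM and 800 nM) right of it. LXN, VWA1 and C15orf52 lie on opposite sides of control with the 2 siRNAs, whereas SORL1 lies below control with both, and levels on either side of the line are not comparable.

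Both LXN and VWA1 fell with C16, and more at the higher dose. LXN had 205, 219 and 193 normalized counts with DMSO, 59.6, 42.7 and 63.8 with 400 nM C16 and 17.1, 25.6 and 13.4 with 800 nM. LXN fell by a log2 fold change of -1.89 at 400 nM (standard error 0.17, adjusted p = 7.81e-14, limma) and -3.44 at 800 nM (0.17, adjusted p = 3.92e-25, limma), where 9.09% of the DMSO mean was left. That fall at 800 nM was known from earlier results of these data and is no independent support. VWA1 had 799, 761 and 784 normalized counts with DMSO, 386, 334 and 332 with 400 nM and 156, 165 and 137 with 800 nM. It fell by -1.16 (standard error 0.08, adjusted p = 6.02e-18, limma) and -2.35 (0.08, adjusted p = 1.85e-32, limma), to 44.9% and 19.6% of DMSO. No libraries overlapped between any 2 of the 3 groups for either gene. The step from 400 nM to 800 nM was -1.54 for LXN (adjusted p = 4.50e-10, limma) and -1.19 for VWA1 (adjusted p = 2.52e-17, limma). Both genes therefore had the order of PKR siRNA 1, and not that of PKR siRNA 2, when set beside C16.

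Over the 18 libraries, with each table centred on its own mean, log2 levels of LXN and VWA1 had a Pearson correlation of 0.98, the highest of the 28 pairs among the 8 genes. The genes whose pattern was most like LXN among 5276 compared were CRIP2 (r = 0.98), a LIM-domain protein, and the secreted guidance factor SEMA3C (r = 0.98). Those most like VWA1 were TTYH3 and DDAH2 (r = 0.99 each). These 18 points hold 6 groups of 3 and share their run and depth, so the correlations describe the groups more than single libraries. The siRNA libraries among them also served to choose the 8 genes.

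Of the 6 epithelial markers, KRT8, KRT19 and CDH1 were lower under PKR siRNA 1 and higher under PKR siRNA 2, as LXN and VWA1 were, and KRT19 and CDH1 fell at both C16 doses. KRT8 had 2527 ± 37.8 normalized counts under control siRNA, 1294 ± 50.8 under PKR siRNA 1 and 4925 ± 188 under PKR siRNA 2, and KRT19 had 1214 ± 32.5, 800 ± 64.1 and 3016 ± 39.6 (SD, n = 3 each). In the C16 table KRT19 went from 1582 ± 63.0 with DMSO to 841 ± 55.9 at 400 nM and 562 ± 46.5 at 800 nM, and KRT8, which stayed within 1.5-fold, from 4361 ± 157 to 3859 ± 151 and 3378 ± 173. The sum of the 6 epithelial markers ran from 5358 to 5451 under control siRNA, 3052 to 3280 under PKR siRNA 1 and 9586 to 10233 under PKR siRNA 2, and from 7171 to 7572 with DMSO, 6033 to 6544 at 400 nM and 5172 to 5685 at 800 nM. That sum is carried by KRT8, KRT18 and KRT19, and the other markers differed. KRT18 fell under PKR siRNA 1 (-0.60), did not pass under PKR siRNA 2 (0.33) and had log2 fold changes of 0.06 and 0.00 with 400 nM and 800 nM C16. KRT7, a low gene, fell under PKR siRNA 2 (-1.86), and EPCAM, an epithelial adhesion molecule, fell with both siRNAs (-2.96 and -3.14) and rose at 800 nM C16 (0.74). The sum of the 3 fibroblast markers, carried by COL1A1 with DCN at 0, was at 82.1 to 112 under control siRNA, 23.6 to 31.1 under PKR siRNA 1 and 118 to 120 under PKR siRNA 2, and at 131 to 161 with DMSO, 104 to 162 at 400 nM and 60.1 to 93.8 at 800 nM. The part of these changes in the values of LXN and VWA1 was not tested.

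**Figure D2:**
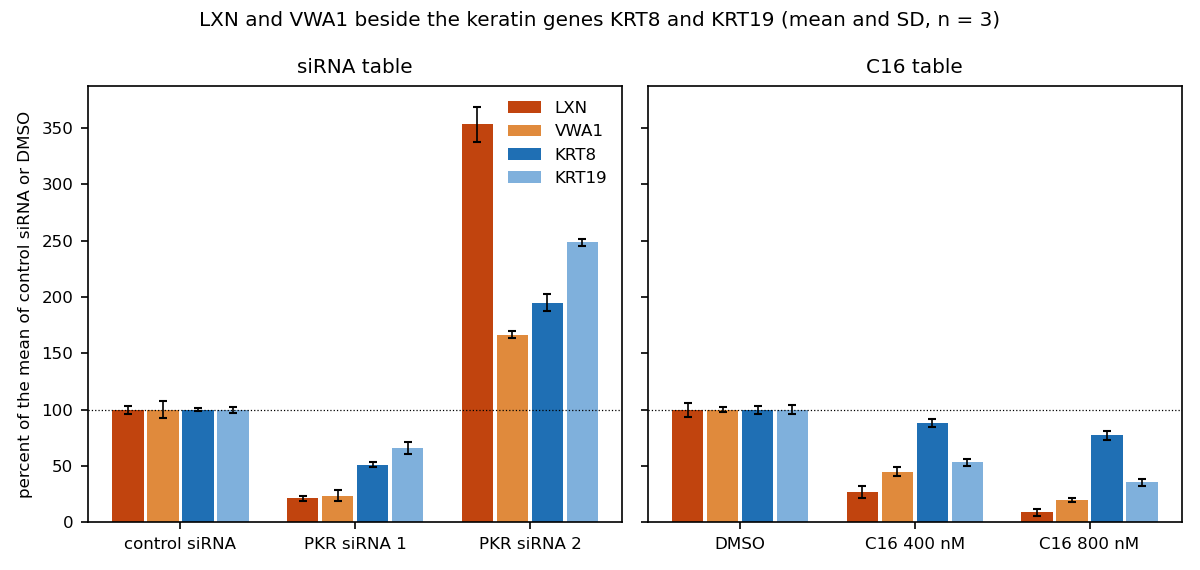
Bars give the mean of 3 libraries as a percent of the mean of control siRNA (left panel) or DMSO (right panel) for LXN, VWA1, KRT8 and KRT19, with error bars of 1 SD. All 4 genes lie under 100% under PKR siRNA 1, above it under PKR siRNA 2 and under it at both C16 doses.

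LXN and VWA1 were also set beside genes of related function. LXN inhibits carboxypeptidases, but of 15 genes in that list 2 had enough counts to be tested, and 0 of them passed under PKR siRNA 1 or C16. The carboxypeptidase CPM fell under PKR siRNA 2, where it had 6.36 ± 1.63 normalized counts against 21.2 ± 3.15 in the controls (SD, n = 3 each, adjusted p = 1.83e-05, limma). Of the basement membrane and A-domain genes, partners of VWA1, 7 of 12 were tested in the siRNA table. Over all tested genes, 8.53% rose and 12.6% fell under PKR siRNA 1, and 10.8% rose and 12.8% fell under PKR siRNA 2, with a median log2 fold change of -0.01 for each. Of the 7, 0 rose and 3 fell under PKR siRNA 1 (median log2 fold change -0.63), and 3 rose and 3 fell under PKR siRNA 2 (median 0.15). Under PKR siRNA 1 the perlecan gene HSPG2 had 323 ± 51.1 normalized counts against 1327 ± 149 in the controls (SD, n = 3 each, log2 fold change -2.04, adjusted p = 1.58e-39, limma). NID1, which encodes nidogen and links laminin to collagen IV, fell under PKR siRNA 1 (-0.74) and rose under PKR siRNA 2 (1.38), the direction of VWA1 with each. COL6A1 (1.39) and MATN2 (0.86) also rose under PKR siRNA 2. Against the direction of VWA1, HSPG2 was below the controls under PKR siRNA 2, at 856 ± 85.3 normalized counts. AGRN was likewise lower there, with a log2 fold change of -0.69. At 800 nM C16, where 11.6% of all genes rose and 14.1% fell, 1 of 6 tested genes of this list rose and 3 fell, HSPG2 by -1.62 (adjusted p = 2.29e-19, limma) and COL6A2 by -0.83, while the matrilin MATN2 rose by 1.27. At 400 nM 1 of the 6 rose and 0 fell, beside 7.08% and 5.45% of all genes.

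PADI2 and ALDH1A3 were both far lower under PKR siRNA 1. PADI2 had 773, 826 and 710 normalized counts under control siRNA, 65.5, 87.1 and 63.7 under PKR siRNA 1 and 348, 412 and 343 under PKR siRNA 2. With PKR siRNA 1 it was at 9.37% of control, a log2 fold change of -3.41 (standard error 0.09) and the 3rd largest change in size among all genes tested. With PKR siRNA 2 it was at 47.8% of control (-1.07, standard error 0.09), so the change was not confined to 1 siRNA but was larger with the first. ALDH1A3 had 354, 352 and 372 normalized counts under control siRNA, 58.9, 74.4 and 58.9 under PKR siRNA 1 and 324, 390 and 370 under PKR siRNA 2. Its libraries overlapped between control and PKR siRNA 2, with a log2 fold change of 0.00 and a 95% interval of -0.18 to 0.19, and it stood at 17.8% of control under PKR siRNA 1 (-2.48, standard error 0.09). The log2 levels of PADI2 and ALDH1A3 correlated with r = 0.92 over the 18 libraries. The siRNA libraries among these chose both genes, so this value is a description without a test.

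Neither enzyme gene passed both thresholds with C16. PADI2 had 145, 154 and 154 normalized counts with DMSO, 218, 173 and 172 with 400 nM C16 and 138, 129 and 137 with 800 nM. These groups did not overlap, but the log2 fold changes were small, 0.30 at 400 nM (95% interval 0.10 to 0.51, adjusted p = 0.023, limma) and -0.16 at 800 nM (-0.37 to 0.05, adjusted p = 0.209, limma). A fall of PADI2 of the size seen with either siRNA lies outside both intervals. ALDH1A3 had 119, 112 and 156 normalized counts with DMSO, 94.7, 101 and 111 with 400 nM and 120, 108 and 111 with 800 nM. The 400 nM libraries lay just under those of DMSO and the 800 nM libraries overlapped them. Its log2 fold changes were -0.32 (95% interval -0.56 to -0.08, adjusted p = 0.0402, limma) and -0.18 (-0.42 to 0.07, adjusted p = 0.239, limma), and the doses did not differ detectably (0.15, interval -0.10 to 0.39, adjusted p = 0.461, limma). The PADI2 difference between the doses, -0.47, had an adjusted p of 0.00108 from limma but was under 1.5-fold.

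**Figure D3:**
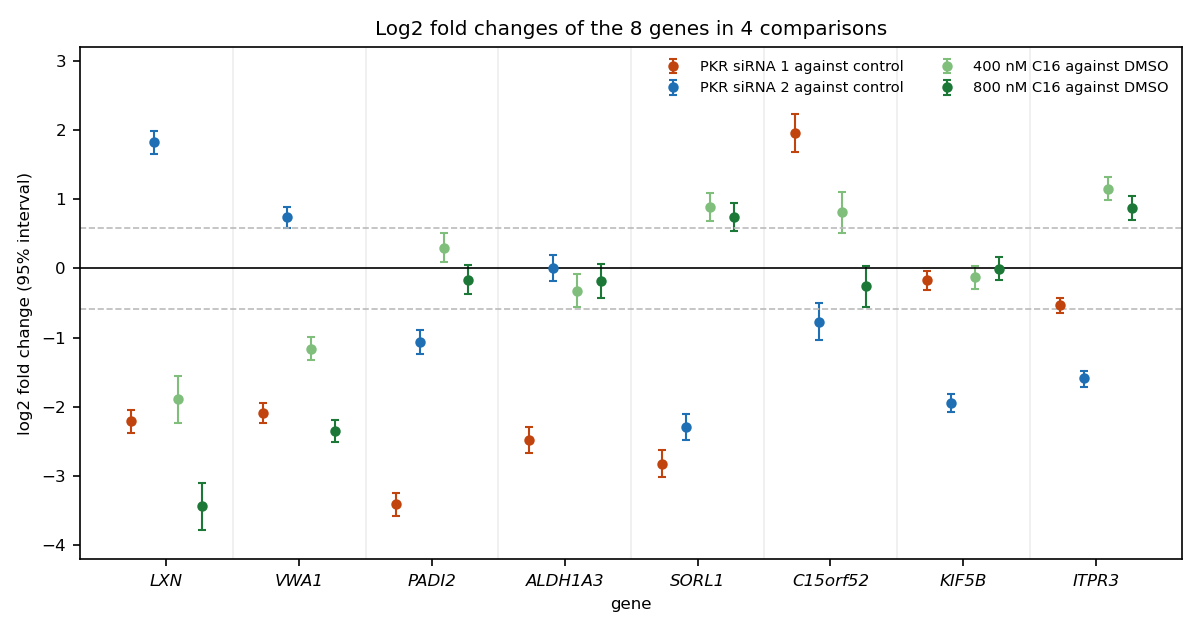
Log2 fold changes of the 8 genes (points) with 95% intervals from limma for both PKR siRNAs against control siRNA and both C16 doses against DMSO, and dashed lines at a change of 1.5-fold. For LXN and VWA1 both C16 doses lie on the side of PKR siRNA 1, for SORL1 and ITPR3 they lie above 0 where both siRNAs lie below it, and for PADI2, ALDH1A3 and KIF5B they lie within the dashed lines.

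The relatives of PADI2 (PADI1, PADI3, PADI4 and PADI6) had too few counts to be tested in either table. Of 25 genes of retinoic acid synthesis and response, the pathway of ALDH1A3, 11 were tested. With PKR siRNA 1, 2 rose and 4 fell (median log2 fold change -0.31), and under PKR siRNA 2, 4 rose and 1 fell (median -0.11), beside all-gene shares of 8.53% up and 12.6% down for the first siRNA and 10.8% and 12.8% for the second. CRABP2, which carries retinoic acid to its receptors in the nucleus, moved in opposite directions, from 277 ± 33.2 normalized counts under control siRNA to 77.0 ± 17.9 under PKR siRNA 1 and 638 ± 41.1 under PKR siRNA 2 (mean ± SD of 3 libraries each). The log2 fold changes of CRABP2 were -1.86 (adjusted p = 2.87e-28, limma) and 1.20 (adjusted p = 2.62e-18, limma), and it also fell with C16, by -0.66 at 400 nM and -1.19 at 800 nM. The retinoic acid receptor RARG (-1.74) and the retinaldehyde reductase DHRS3 (-1.48) fell under PKR siRNA 1. At 400 nM C16, 2 of the 11 rose and 3 fell, beside 7.08% and 5.45% of all genes. At 800 nM, 1 rose and 5 fell, beside 11.6% and 14.1%, with the retinoid X receptor RXRB lowest (-1.61, adjusted p = 5.56e-08, limma). CRABP2 thus had the signs of LXN and VWA1 in all 4 comparisons. It differed from ALDH1A3 under PKR siRNA 2, where ALDH1A3 had a log2 fold change of 0.00.

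The genes most like PADI2 in pattern were CAP1 and CNN2 (r = 0.98 each), which both encode actin-binding proteins, and the gene most like ALDH1A3 was the proprotein convertase FURIN (r = 0.98). CNN2 had log2 fold changes of -2.32 under PKR siRNA 1 and -0.74 under PKR siRNA 2, and FURIN of -2.21 and 0.25. These genes were chosen by their pattern over the same libraries, so a likeness of these values to PADI2 or ALDH1A3 follows from the choice. None of these 3 held a match to either seed in the 3′ UTR. The 3′ UTR of ALDH1A3 is 1853 bases long, and its match to the siRNA 1 seed lies in 2 of its 4 coding transcripts. Among 1484 tested genes with a 3′ UTR within 20% of that length, 11.7% held a match to this seed. PADI2 held no match to either seed in 2283 bases, where 14.1% of 1466 genes of like length held the siRNA 1 seed and 19.6% the siRNA 2 seed.

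SORL1 and KIF5B, both of intracellular transport, were lower under PKR siRNA 2, and SORL1 under PKR siRNA 1 as well. SORL1 had 541, 559 and 582 normalized counts under control siRNA, 84.4, 78.9 and 72.4 under PKR siRNA 1 and 125, 106 and 110 under PKR siRNA 2. It was at 14.0% and 20.3% of control, with log2 fold changes of -2.82 and -2.29 (standard error 0.10 each). The libraries of the siRNAs did not overlap, but they differed by 0.53 on the log2 scale (standard error 0.10), which is under 1.5-fold. The description of a change that differs between the siRNAs thus does not apply to SORL1, which was strongly lower with both. KIF5B had 792, 711 and 801 normalized counts under control siRNA, 725, 627 and 696 under PKR siRNA 1 and 207, 205 and 186 under PKR siRNA 2. Control and PKR siRNA 1 overlapped (88.9% of control, log2 fold change -0.17, standard error 0.07), whereas PKR siRNA 2 lay apart from both at 26.0% of control (-1.94, standard error 0.07).

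SORL1 rose with C16, where both siRNAs had it below control. It had 120, 117 and 145 normalized counts with DMSO, 266, 224 and 221 with 400 nM C16 and 218, 202 and 218 with 800 nM. All treated libraries lay above all DMSO libraries, with log2 fold changes of 0.89 at 400 nM (standard error 0.10, adjusted p = 1.20e-10, limma) and 0.74 at 800 nM (0.10, adjusted p = 1.01e-08, limma). The higher dose did not give more, with a difference of -0.15 (95% interval -0.35 to 0.05, adjusted p = 0.329, limma). KIF5B had 326, 342 and 322 normalized counts with DMSO, 285, 289 and 331 with 400 nM and 330, 328 and 328 with 800 nM. No change of KIF5B was detected at 400 nM (-0.13, 95% interval -0.29 to 0.03, adjusted p = 0.233, limma) or 800 nM (-0.01, -0.17 to 0.16, adjusted p = 0.959, limma), and these intervals leave out a fall of the size seen under PKR siRNA 2.

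SORL1 and KIF5B hold most of the seed matches. SORL1 has 2 matches to each seed in a 3′ UTR of 4200 bases, present in 1 of its 5 coding transcripts, and 25.2% of 1128 tested genes with a 3′ UTR of like length held the siRNA 1 seed and 35.5% the siRNA 2 seed. KIF5B has 3 matches to the siRNA 2 seed in 2522 bases, and 20.8% of 1473 genes of like length held at least 1. Over all 10100 tested genes with a 3′ UTR, a match to the siRNA 1 seed was present in 11.9% and to the siRNA 2 seed in 16.6%. Genes with a siRNA 1 match had a median log2 fold change of -0.23 under PKR siRNA 1 against 0.01 without one, and 26.8% of them fell against 11.1%. For siRNA 2 the medians with that siRNA were -0.15 and 0.00, and 22.8% fell against 11.1%. Genes with a match have longer 3′ UTRs, so the shares were also taken among 3′ UTRs of at least 2000 bases. There 26.4% against 12.8% fell under PKR siRNA 1 and 20.8% against 11.1% under PKR siRNA 2. Lengths were still not equal in this set. The median was 4382 bases with a match to the siRNA 1 seed against 3224 without, and 4202 against 3138 for the siRNA 2 seed. With the other siRNA the shares were close, 15.0% against 14.1% for the siRNA 1 seed and 17.0% against 15.7% for the siRNA 2 seed. The part of a seed match in the level of any of the 8 genes was not tested.

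**Figure D4:**
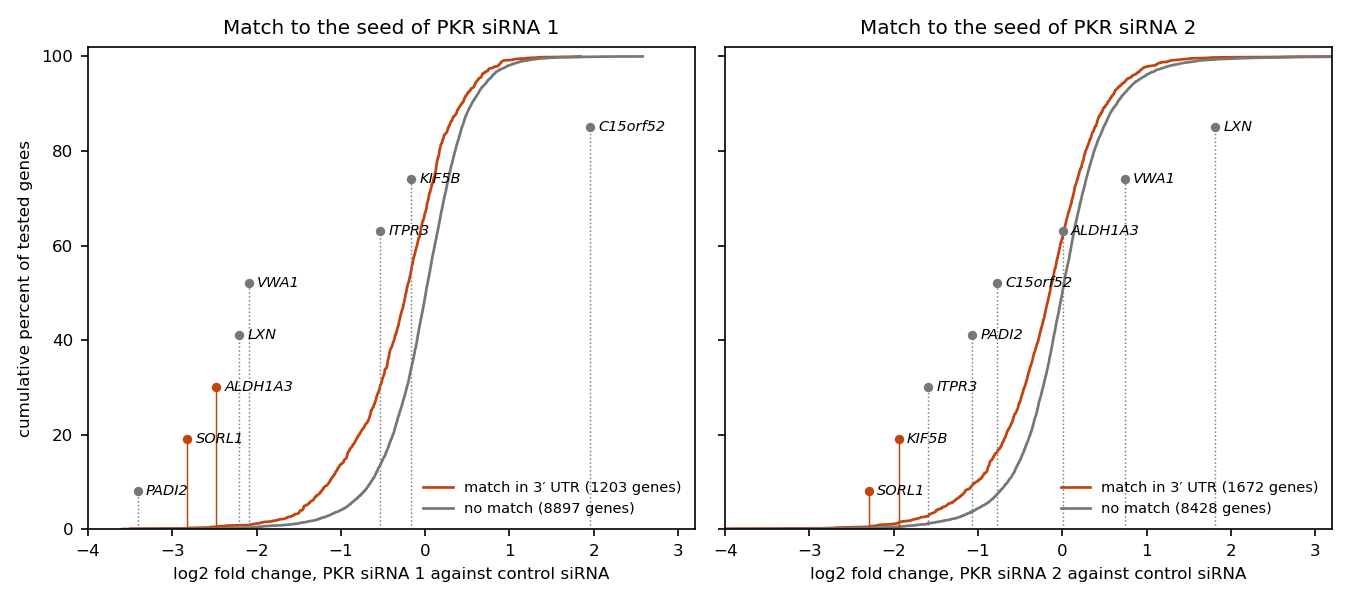
Cumulative percent of tested genes by log2 fold change under PKR siRNA 1 (left) or PKR siRNA 2 (right), for genes with (red) and without (grey) a match to that siRNA's seed in the 3′ UTR. Vertical lines mark the 8 genes at their own fold change, with heights that only keep the names apart, and are red where the gene holds a match, as ALDH1A3 and SORL1 do on the left and SORL1 and KIF5B on the right.

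The partners of these transport genes were counted in the same way. Of 19 VPS10 receptors, retromer subunits and cargo genes, 16 were tested. Of these, 2 rose and 1 fell under PKR siRNA 1, 1 rose and 1 fell under PKR siRNA 2, and 0 passed with either C16 dose. Of all tested genes, 8.53% rose and 12.6% fell under PKR siRNA 1, and 10.8% rose and 12.8% fell under PKR siRNA 2. With C16, 7.08% rose and 5.45% fell at 400 nM, and 11.6% rose and 14.1% fell at 800 nM. SORT1, the VPS10 receptor sortilin, fell under PKR siRNA 2 (-0.80, adjusted p = 5.65e-06, limma), and BACE1, a protease that cleaves the amyloid precursor, rose with both siRNAs (0.65 and 1.10). Of 15 kinesin-1 chains and adaptors, 12 were tested, with 0 rises and 3 falls with each siRNA, beside falls of 12.6% and 12.8% of all genes. At 400 nM C16 0 passed, and at 800 nM 1 rose and 2 fell, beside 11.6% and 14.1% of all genes. MAP7, which recruits kinesin-1 to microtubules, fell with both siRNAs (-1.19 and -1.81) but rose at 800 nM C16 (1.54, adjusted p = 3.88e-04, limma), where the kinesin light chain KLC4 (-1.47) and the adaptor MAPK8IP3 (-0.62) fell. The mitochondrial adaptor RHOT1 fell under PKR siRNA 1 (-1.20, adjusted p = 2.06e-12, limma). The genes most like SORL1 were ASPH (r = 0.98) and the tropomyosin TPM2 (r = 0.97), each lower with both siRNAs, and those most like KIF5B were PEG10 and BTBD1 (r = 0.98 each). BTBD1 had log2 fold changes of -0.05 under PKR siRNA 1 and -0.99 under PKR siRNA 2. These genes were chosen by their pattern over the same libraries, so a likeness of their values to SORL1 or KIF5B follows from the choice. BTBD1 held 1 match to the siRNA 2 seed, and ASPH and TPM2 held 0 matches to either seed. PEG10 was not among the genes with a 3′ UTR that was searched. The part of the seed in these values was not tested.

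ITPR3, the calcium channel, was lower with both siRNAs and higher with both C16 doses. It had 1181, 1292 and 1223 normalized counts under control siRNA, 811, 908 and 834 under PKR siRNA 1 and 405, 406 and 411 under PKR siRNA 2. The groups did not overlap. It was at 69.1% of control under PKR siRNA 1 (log2 fold change -0.53, standard error 0.06), under 1.5-fold, and at 33.1% under PKR siRNA 2 (-1.59, standard error 0.06). In the C16 table it had 208, 220 and 269 normalized counts with DMSO, 517, 564 and 469 with 400 nM and 422, 416 and 431 with 800 nM. It rose by 1.15 at 400 nM (standard error 0.08, adjusted p = 1.33e-17, limma) and by 0.87 at 800 nM (0.08, adjusted p = 2.92e-13, limma). The higher dose gave the smaller rise, with a difference of -0.28 (adjusted p = 0.014, limma) that was under 1.5-fold. CD68 had the same order in this table, at 53.3 ± 3.53 normalized counts with DMSO, 158 ± 14.8 at 400 nM and 115 ± 10.2 at 800 nM (SD, n = 3 each), with PTPRC and CD3E at 0 in every library. With the siRNAs CD68 had the opposite sign to ITPR3, with log2 fold changes of 0.58 under PKR siRNA 1 and 0.30 under PKR siRNA 2.

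Of 21 genes of calcium release and refilling of the endoplasmic reticulum, 17 were tested, and 0 rose and 3 fell under PKR siRNA 1, 1 rose and 0 fell under PKR siRNA 2, and 1 rose and 2 fell at each C16 dose, beside the all-gene shares given above. ITPR1, the type 1 receptor, rose with C16 as ITPR3 did, from 24.4 ± 8.29 normalized counts with DMSO to 55.4 ± 4.74 at 400 nM and 54.1 ± 1.51 at 800 nM (SD, n = 3 each), with adjusted p = 1.67e-06 and 1.14e-06 from limma. The calcium pump ATP2A3 fell under PKR siRNA 1 (-1.62) and with C16 (-1.34 at 400 nM and -1.41 at 800 nM), and the channel subunit ORAI3 fell with C16 (-1.08 and -1.98). ORAI3 was a low gene, at 18.5 ± 4.65 normalized counts with DMSO and 3.91 ± 0.927 at 800 nM (SD, n = 3 each). The genes most like ITPR3 were the chromatin protein HMGA1 (r = 0.98) and the glycosyltransferase GALNT2 (r = 0.97). HMGA1 had log2 fold changes of -0.31 and -1.61 with the siRNAs and 0.90 and 0.70 with 400 nM and 800 nM C16. HMGA1 was chosen by its correlation with ITPR3 over the same libraries, so the shared signs follow from that choice.

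C15orf52 was the 1 gene of the 8 that was higher under PKR siRNA 1 and lower under PKR siRNA 2. It had 60.6, 52.6 and 61.6 normalized counts under control siRNA, 224, 212 and 250 under PKR siRNA 1 and 36.8, 29.0 and 35.7 under PKR siRNA 2. The groups did not overlap, at 393% and 58.0% of control, with log2 fold changes of 1.96 and -0.77 (standard error 0.14 each). With PKR siRNA 1 it had the 11th highest log2 fold change of the 10593 genes tested. In the C16 table it had 46.6, 66.7 and 61.7 normalized counts with DMSO, 89.3, 110 and 107 with 400 nM and 52.4, 46.3 and 45.8 with 800 nM. It rose at 400 nM (0.81, standard error 0.15, adjusted p = 2.71e-05, limma), overlapped DMSO at 800 nM (-0.26, 95% interval -0.56 to 0.04, adjusted p = 0.161, limma), and differed between the doses (-1.06, adjusted p = 3.77e-07, limma). Its pattern was nearest to KIFC1 (r = 0.96), a kinesin of the spindle, and to the proteasome subunit PSMC5 (r = 0.95). C15orf52 ran against ALDH1A3 (r = -0.90), a value that includes the siRNA libraries that chose both genes.

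Neighbouring genes were compared to see whether a change was shared along the chromosome. None of the 8 genes shared exon bases with another gene in the files, and LXN alone overlapped a gene, GFM1. GFM1, a mitochondrial translation factor, had the opposite sign to LXN in each comparison, 0.40 and -0.56 with the siRNAs, 0.52 at 400 nM C16 and 0.89 at 800 nM (adjusted p = 2.49e-09, limma), of which the last passed. MLF1, on the lower side of LXN, rose under PKR siRNA 2 (0.75) and did not pass in the other 3 comparisons. The LXN neighbour MFSD1, a membrane transporter, had the signs of LXN with the siRNAs, falling under PKR siRNA 1 (-0.86, adjusted p = 1.11e-09, limma) and rising under PKR siRNA 2 (0.87, adjusted p = 8.22e-10, limma), but did not pass with C16. ATAD3C, 6807 bases from VWA1, fell under PKR siRNA 1 (-2.47, adjusted p = 9.31e-12, limma) and with both C16 doses (adjusted p = 0.0054 at 400 nM and 1.30e-04 at 800 nM, limma), at a mean of 24.8 normalized counts in the siRNA table. DISP2, 17266 bases from C15orf52, rose under PKR siRNA 1 (0.88), fell under PKR siRNA 2 (-0.86) and rose with both C16 doses (1.04 at 400 nM and 0.67 at 800 nM). SC5D, a sterol enzyme gene next to SORL1, fell with both siRNAs (-0.59 each) and rose at 800 nM C16 (0.73), the signs of SORL1, while MIR100HG on its other side rose under PKR siRNA 1 (1.09). INAFM2, on the other side of C15orf52, fell under PKR siRNA 2 (-1.25) and rose at 800 nM C16 (1.36). The neighbours of KIF5B, ARHGAP12 and EPC1, passed in 0 of these 4 comparisons. BAK1, on the lower side of ITPR3, fell under PKR siRNA 1 (-1.45, adjusted p = 7.70e-18, limma) and did not pass in the other 3. UQCC2, 190 bases from ITPR3, did not pass with either siRNA (-0.22 and 0.17) and fell at 800 nM C16 (-0.68, adjusted p = 7.33e-04, limma), where ITPR3 rose. The neighbours of PADI2, SDHB and RCC2, and of ALDH1A3, ASB7 and LRRK1, passed with neither siRNA, and MRPL20, the other neighbour of VWA1, passed in none of the 4.

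**Figure D5:**
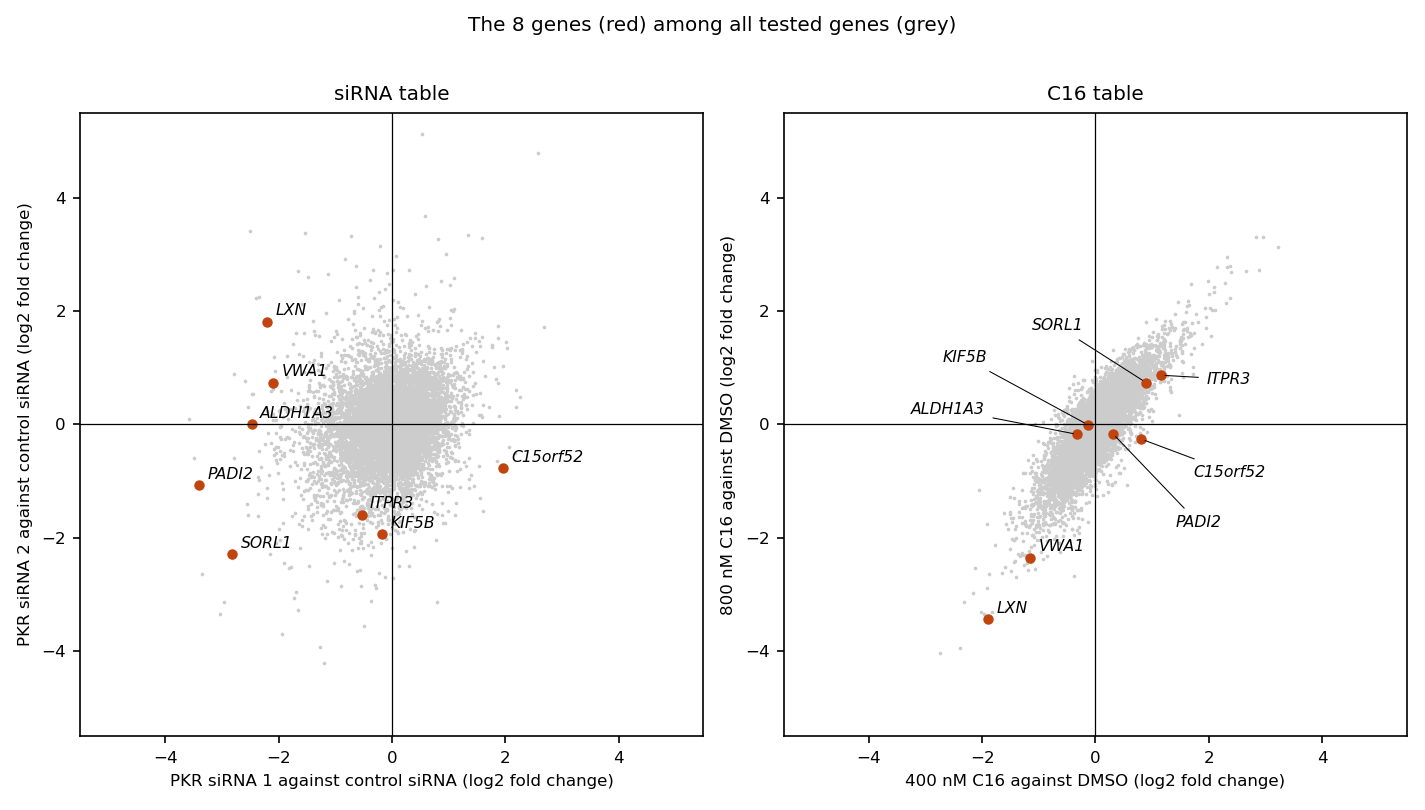
Log2 fold changes of all tested genes (grey) and of the 8 genes (red), under PKR siRNA 1 against PKR siRNA 2 on the left and 400 nM against 800 nM C16 on the right, where both axes of a panel share their control libraries. On the left LXN, VWA1 and C15orf52 lie in the quadrants of opposite sign, and on the right LXN and VWA1 lie at the lower end while KIF5B, ALDH1A3 and PADI2 lie near 0.

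Counted over the 8 genes, 1 was higher and 5 were lower under PKR siRNA 1 by the call used for all genes, an adjusted p under 0.05 and a fold change over 1.5. In that comparison 8.53% of all tested genes were called up and 12.6% down. With PKR siRNA 2, 2 of the 8 were higher and 5 lower, beside 10.8% and 12.8% of all genes. Between the siRNAs, 4 of the 8 were higher under PKR siRNA 2 and 3 lower, beside 16.4% and 15.3% of all genes. These counts follow from the selection and nothing is read from them.

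With C16 the 8 genes went in several directions. At 800 nM, LXN and VWA1 fell and SORL1 and ITPR3 rose, 2 genes each way, where 11.6% of all genes rose and 14.1% fell. At 400 nM, LXN and VWA1 fell and SORL1, ITPR3 and C15orf52 rose, where 7.08% of all genes rose and 5.45% fell. Between the doses, 0 of the 8 were higher and 3 were lower at 800 nM, namely LXN, VWA1 and C15orf52, where 1.13% of all genes were higher and 3.95% lower. The median log2 fold change of the 8 genes was 0.08 at 400 nM and -0.17 at 800 nM, and that of all genes was 0.00 at both. The comparisons with a siRNA share their control libraries, as do those with C16, so their values are given side by side. Exact permutation tests of 3 libraries against 3 (two-sided) gave p = 0.1, the smallest they can give, for each of these calls.

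Set beside C16 gene by gene, PKR siRNA 1 had the sign of both doses for LXN and VWA1, and PKR siRNA 2 had the opposite sign for these 2 genes. SORL1 and ITPR3 were below control with both siRNAs and rose with both doses. PADI2, ALDH1A3 and KIF5B, each at 26.0% of control or less with at least 1 siRNA, were within 1.5-fold of DMSO at both doses. Per kilobase of exon, control levels ran from 10.9 normalized counts for C15orf52 to 225 for LXN under control siRNA, and from 10.9 for C15orf52 to 184 for LXN under DMSO.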

How the data were processed

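RNA of PANC-1 cells was measured in 18 libraries, 3 in each of 6 groups taken from the sample titles. The dose of 400 nM is in the titles alone. The authors used TopHat (hg38) for alignment, featureCounts for counting reads per gene, and the TMM method in TCC for normalization. What they deposited is thus a signal for each gene, read counts divided by a library factor, here called normalized counts. The annotation and the strand setting are not given in the sources used here. Lengths of genes, in bases, were used as deposited for levels per kilobase.

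Values were tested on the log2(normalized count + 1) scale, which understates the change of low genes, with limma 3.58.1 in R 4.3.3 (trend, two-sided), with the 9 libraries of a table in 1 fit. Genes needed a mean normalized count of 10 or more, with Benjamini-Hochberg adjustment over all of them. A call was an adjusted p under 0.05 and a fold change over 1.5. For nearly all values whole reads could be recovered (within 0.02 of a whole multiple), and edgeR 4.0.16 and DESeq2 1.42.0 were run on them as alternatives. In the first libraries of PKR siRNA 2 and of 800 nM C16 the value of 1 read lies too near 1 for this to be told from rounding. All 18 pairs of replicates differed by more than counting noise (chi-square p under 0.05), so none were merged. Further alternatives changed the pseudocount (0.5 or 5), the filter (none, or a mean of 30), the scaling (median of ratios) or the fit (the 2 groups alone, a replicate block, or each library left out). The scripts were tested on simulated data.

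The 8 genes, the gene lists and the tests were chosen with earlier results of these data known, and the lists were written from memory. Genes named beside the 8 were drawn from EIF2AK2, the markers, up to 3 called genes per list and comparison with the largest change, the 2 genes of highest correlation with each (mean of at least 50 in both tables) and the nearest tested or overlapping genes. Not every gene of this set is named, and 1 item is not reported here. Seeds were searched for in 3′ UTRs of 50 bases or more of canonical GENCODE 44 transcripts, on the mRNA strand alone. Symbols in the files that GENCODE has replaced were matched through synonyms from RefSeq, which gave 10100 of 10593 genes.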

Additional observations from a re-analysis of the deposited data

Results flagged for a closer look

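The difference between 800 nM and 400 nM C16 passed the test for 3 of the 8 genes, and these 3 are listed because an effect that differs between doses was tested directly. It was -1.54 on the log2 scale for LXN (standard error 0.17), -1.19 for VWA1 (standard error 0.08) and -1.06 for C15orf52 (standard error 0.15), with all 3 libraries at 800 nM below all 3 at 400 nM. For LXN and VWA1 the higher dose extended the fall, whereas C15orf52 rose at 400 nM and overlapped DMSO at 800 nM. The doses share 1 run and 1 set of DMSO libraries, and causes of the difference were not tested.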

How the results depend on the processing

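The counts of the 8 genes called with C16 (4 at 800 nM, 5 at 400 nM and 3 between the doses) were the same under all 9 other settings and with each library left out. Over all genes, a minimum mean of 30 normalized counts lowered the calls from 2561 to 1618 at 800 nM, from 1248 to 769 at 400 nM and from 507 to 313 between the doses, where fewer genes are tested, and DESeq2 gave 188 between the doses, for which the cause was not tested. The log2 fold change of KIF5B at 800 nM, -0.01, came to 0.00 with median-of-ratios rescaling and with edgeR and ran from -0.02 to 0.02 as each library was left out, so it has no direction. Without the second library of PKR siRNA 1, values with that siRNA went to -2.25 for VWA1 and -3.55 for PADI2. Same-numbered libraries did not deviate together (correlations from -0.049 to 0.032), so the numbers were not taken as pairs; each library matched its own number best in 9 of 18 cases in the siRNA table and 3 of 18 in the C16 table. With a replicate block 2554, 1239 and 506 genes were called in the 3 C16 comparisons and 2237, 2489 and 3359 in the siRNA comparisons (siRNA 1, siRNA 2 and the difference), and no call of the 8 genes changed. At this depth, genes with few reads, such as LXN at 800 nM with 13.4 to 25.6 normalized counts, are imprecise.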
